A study of Mus musculus with 20 samples.

Results

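The 10 genes described here were the tumor suppressor gene Trp53 and 9 genes that the p53 protein is known to switch on: Cdkn1a, Mdm2, Ccng1, Trp53inp1, Bax, Bbc3, Sesn2, Phlda3 and Zmat3. They were chosen by name from a count table of 43346 genes, and all 10 were found in it and passed the filter on low counts, as did 18883 genes in all. The table held 20 breast tumors, 1 from each of 20 female [BALB/c-neuT x FVB/J] F1 mice, whose fathers carried the transgene and whose ages the labels do not give. Each mouse carried the activated rat Her2/neu oncogene, neuT, under the MMTV promoter, which is active in mammary epithelium, so there was no group without the transgene and no normal tissue. The labels named the tumors only Lo (n = 9) or Hi (n = 11) without saying what the words stand for. RNA came from small pieces of frozen tumor, so a sample could hold stroma, vessels and immune cells beside the tumor cells.

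The p53 protein is a transcription factor that is kept scarce by Mdm2, a ubiquitin ligase that marks it for destruction. Damage to DNA, an active oncogene or a stalled ribosome breaks this hold, and p53 then switches on genes that stop the cell cycle, kill the cell or limit its growth. Because p53 is controlled mainly as a protein, its activity is usually read from the RNA of its targets rather than from the RNA of Trp53 itself. Mdm2 is also one of these targets, which closes a feedback loop.

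Totals ranged from 38765682 to 65465755 counts per tumor, and the counts of the 10 genes ran from 180 for Sesn2 in its lowest tumor to 12263 for Cdkn1a in its highest. All 20 tumors had the epithelial genes Epcam, with a log2 CPM (counts scaled to a common library size) of 9.78 to 10.38, and Krt8, with 9.15 to 10.11. Between 6.29% and 27.7% of a tumor's counts lay on the locus of ribosomal RNA. Tumors also differed in how their counts depended on the GC content of the transcripts. This dependence, called the GC slope below, is the change in log2 CPM for 1 SD of GC content across 13720 genes and ran from -0.085 to 0.119. The length slope, measured alongside it, ran from -0.052 to 0.050. Fits on single genes, fits on chromosome dosage and summarised correlations among the 10 genes are given with and without these slopes. Other results, among them levels, values of single tumors and nearest genes, are given without removing the slopes.

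p53 binds DNA as a pair of half-sites, each a 10-letter motif that reads the same on both strands. The letters near the starts of these genes are shown because this is the motif that p53 recognises. RefSeq promoter windows of build GRCm38.p6, from 250 bases before to 50 bases after each start, were given for 8 of the 10 genes, and 5 of these 8 held a half-site (Trp53inp1 and Zmat3 had no entry). Of all 32851 windows, 8.36% held a half-site and 0.0731% held 2 half-sites with at most 13 bases between them. Cdkn1a was the only one of the 8 with such a pair. Its half-sites begin at positions -73 and -51 from the first of its 2 listed starts and lie 12 bases apart. The 10 bases after the second half-site match the motif in 9 of 10 positions. The window of its second start held none. The stretch below is chr17:29090729-29090978 on the forward strand, 5′ to 3′, with the half-sites in capitals.
Cdkn1a: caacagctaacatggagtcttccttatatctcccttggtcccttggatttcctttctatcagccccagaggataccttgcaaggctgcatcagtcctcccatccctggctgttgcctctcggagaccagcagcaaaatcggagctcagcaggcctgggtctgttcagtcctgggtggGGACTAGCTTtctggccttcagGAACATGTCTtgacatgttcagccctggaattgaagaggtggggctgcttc

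Mdm2, Bax, Ccng1 and Trp53 each held 1 half-site. The 30 bases around each are given 5′ to 3′ on the strand of the gene, again with the half-site in capitals. They lie at chr10:117710925-117710954 (reverse strand) for Mdm2, chr7:45467080-45467109 (reverse) for Bax, chr11:40755452-40755481 (reverse) for Ccng1 and chr11:69580274-69580303 (forward) for Trp53.
Mdm2: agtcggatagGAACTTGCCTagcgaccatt
Bax: agcatatcccAGGCAAGCTTtgaacttgcg
Ccng1: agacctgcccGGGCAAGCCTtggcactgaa
Trp53: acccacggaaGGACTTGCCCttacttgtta
These half-sites begin at positions -186, -201, -185 and -75 from the RefSeq start of the window, in that order. For Ccng1 this start lies inside the gene as listed in the count table, and for the other 3 it matches the listed start. No half-site was found in the windows of Phlda3, Sesn2 or Bbc3. Of 24 further p53 targets listed for comparison, 19 had a window, 6 of these held a half-site and none held a pair. These matches describe letters and do not show binding.

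Levels are given first, as CPM per kilobase of the listed length, scaled with TMM factors so that genes and tumors can be set side by side. Trp53 (chr11:69580359-69591873) varied little. Its level was 14.8 ± 1.18 (SD, n = 20), with a lowest value of 12.1 in Hi 4, a median of 14.96 and a highest value of 16.8 in Lo 9. On the log2 scale its SD of 0.12 was above that of only 5.77% of the genes tested, whose median SD was 0.25. Lo tumors ranged from 13.4 to 16.8 and Hi tumors from 12.1 to 16.4, so the groups overlapped over most of their range.

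Cdkn1a (chr17:29090979-29100722), which encodes the cell cycle inhibitor p21, varied most. Its level was 36.9 ± 21.0 (SD, n = 20), from 14.3 in Lo 7 through a median of 31.5 to 107.4 in Lo 8, a 7.52-fold range. Its SD of 0.66 (log2) was above that of 89.6% of the genes tested. The highest and the second highest tumors, Lo 8 and Lo 11 with 71.4, were both Lo, and so was the lowest. The other 17 tumors lay between 20.1 and 49.5. Without Lo 8 the range was 5.0-fold.

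The 2 genes that act against p53 or on the cell cycle beside it varied less. Mdm2 (chr10:117688888-117710758) had a level of 9.94 ± 1.29, from 7.82 in Lo 4 through 9.66 to 13.3 in Lo 8. Its SD of 0.18 was above that of 29.9% of genes. Ccng1 (chr11:40748552-40755311) encodes cyclin G1, which recruits a phosphatase to Mdm2. Its level was 29.3 ± 5.07, from 19.9 in Lo 7 through 29.1 to 38.9 in Lo 8. Mdm2 and Ccng1 thus spanned only 1.71-fold and 1.95-fold, although their highest tumor was the same as that of Cdkn1a.

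Bax and Bbc3 promote death by way of mitochondria. Bax (chr7:45461695-45466898), whose protein opens the outer mitochondrial membrane, had the highest median of the 10 genes. Its level was 44.0 ± 8.68, from 32.5 in Hi 3 through 41.8 to 65.8 in Lo 8. Bbc3 (chr7:16309616-16318205), which encodes PUMA, a BH3-only protein that frees Bax, stood far lower at 4.52 ± 1.48. It ran from 2.58 in Hi 3 through 4.27 to 9.89 in Lo 8, with the next tumor, Lo 11, at 5.84. Lo 8 thus carried much of the spread of Bbc3, whose SD fell from 1.48 to 0.790 without Lo 8.

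The remaining 4 genes act on stress, signaling and RNA. Phlda3 (chr1:135766119-135769136), which holds back Akt by competing for membrane lipids, had a level of 18.6 ± 5.70. It ran from 11.98 in Hi 3 through 15.5 to 29.5 in Lo 11. Sesn2 (chr4:132492032-132510501), a sestrin that lowers mTORC1 activity, had 2.21 ± 0.585, from 1.39 in Hi 6 through 1.95 to 3.54 in Lo 8. Zmat3 (chr3:32334792-32366014), an RNA-binding zinc finger protein, had 2.88 ± 0.870, from 1.82 in Lo 7 through 2.74 to 5.11 in Lo 11. Trp53inp1 (chr4:11156431-11174379), which aids p53 phosphorylation and autophagy, had 4.33 ± 0.893, from 2.56 in Lo 2 through 4.37 to 6.14 in Hi 5. It was the only one of the 9 targets whose level in Lo 8 lay below the median of the other tumors.

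By median level the order was Bax, Cdkn1a, Ccng1, Phlda3, Trp53, Mdm2, Trp53inp1, Bbc3, Zmat3 and Sesn2. Neighbours in this order overlapped in range, except that Mdm2 stood clear of Trp53inp1: its lowest value, 7.82, was above the 6.14 that Trp53inp1 reached. Trp53 and Mdm2 overlapped only through Lo 8, since the next highest value of Mdm2, 11.4, lay below the lowest of Trp53.

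**Figure D1:**
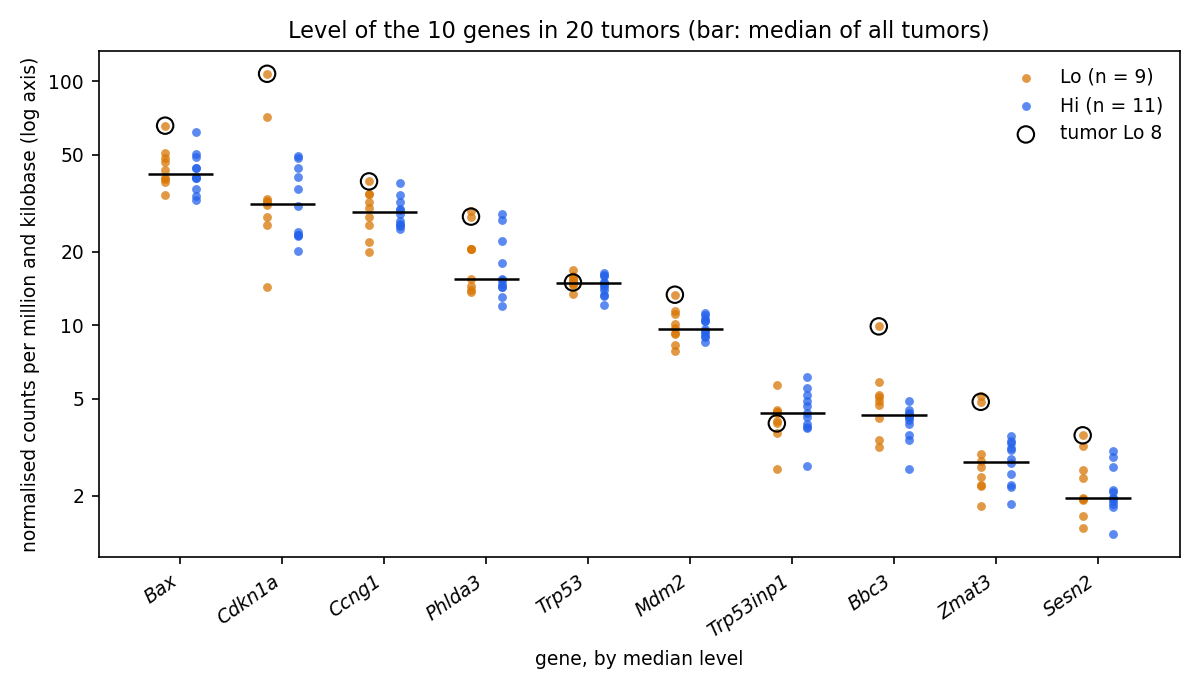
Level of each gene (vertical log axis, normalised CPM per kilobase) in the 9 Lo tumors (orange) and 11 Hi tumors (blue), with the median of all 20 as a bar and Lo 8 ringed. Cdkn1a spans 14.3 to 107.4, Trp53 only 12.1 to 16.8, and the Lo and Hi points overlap for every gene.

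Lo and Hi tumors were compared next, the only grouping in the labels. None of the 10 genes passed the threshold, and neither did any other gene: edgeR's quasi-likelihood test with Benjamini-Hochberg adjustment called 0 of 18883 genes (0%), with 1045 at an unadjusted p below 0.05. DESeq2 called 1 gene. Bbc3 had the largest difference. Its level was 5.15 ± 1.97 (SD, n = 9) in Lo and 4.0 ± 0.628 (n = 11) in Hi, a log2 difference of 0.37 (SE 0.16, adjusted p = 0.851). Without Lo 8 the difference was 0.19 (SE 0.12). Cdkn1a was 41.6 ± 29.1 in Lo and 33.1 ± 11.1 in Hi, a log2 difference of 0.33 (SE 0.28, adjusted p = 0.9996), and 0.02 (SE 0.23) without Lo 8. The other 8 differed by -0.10 to 0.15 (log2), each with an adjusted p of 0.9996. The 24 further targets had a median difference of 0.01, and 0 passed. Of 14 p53 regulators tested, 0 passed, with a median of -0.01. The median over all genes was 0.00.

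No gene thus separated the 2 groups, whereas single tumors stood apart. Lo 8 was the highest of the 20 tumors for 6 of the 10 genes (Cdkn1a, Mdm2, Ccng1, Bax, Bbc3 and Sesn2) and among the 3 highest for 8 of them, the other 2 being Phlda3 and Zmat3. Of all genes tested, 8.83% were highest in Lo 8 and 20% were among its 3 highest. Lo 11 was highest for Phlda3 and Zmat3, against 5.56% of all genes, and among the 3 highest for 5 genes, against 15.6% of all genes. At the other end, Lo 7 and Hi 3 were each the lowest tumor for 3 of the 10, where 3.33% and 7.28% of all genes were lowest. Lo 8 was singled out by these values, so no test is attached to them.

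Relative to the median of the other 19 tumors, Lo 8 held 3.47 times the level of Cdkn1a, 2.34 times that of Bbc3 and 1.81 times that of Sesn2 and of Phlda3. Zmat3 stood at 1.79 times, Bax at 1.63, Mdm2 at 1.39 and Ccng1 at 1.36. Trp53 RNA was level with the other tumors, at 14.97 against a median of 14.95 and 10th of the 20 tumors. Trp53inp1 was at 0.905 times. Of the 10 genes, 6 exceeded the median of the other tumors by over 0.5 on the log2 scale, against 10.4% of all genes tested.

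Some of the further p53 targets were also high in Lo 8. Of these 24, 8 had their highest value there: Aen, Pidd1, Gdf15, Ddit4, Apaf1, Polk, Tnfrsf10b and Eda2r. Ddit4, an inhibitor of mTORC1, lay 1.41 (log2 CPM) above the median of the other tumors. Eda2r, a death receptor of the TNF family, lay 1.17 above it and Aen, a nuclease that acts in apoptosis, 0.80 above it. Gdf15, a secreted stress cytokine, lay 1.36 above it but at a low level (log2 CPM of -0.22). Not all followed: 6 of the 24 lay below the median of the other tumors, with differences from -0.81 to -0.02. Over the 24 the median excess was 0.20, against -0.01 over all genes. These genes were picked out after their values were seen.

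The 14 p53 regulators tested had a median of -0.14 in Lo 8, and 0 of them exceeded the other tumors by over 0.5. Of the 14, 1 was highest in Lo 8 (7.14%, against 8.83% of all genes) and 1 was lowest (against 9.12% of all genes). Trp53bp1, Cop1 and Mdm4 are named here after their values were seen. Trp53bp1, a partner of p53 in the damage response, was highest in Lo 8 with an excess of 0.40. Cop1, another ubiquitin ligase for p53, was lowest there, 0.69 below the median of the other tumors, and Mdm4, which blocks p53 without degrading it, was 13th of 20. Cop1 and Mdm4 lie on chromosome 1, whose genes as a whole were lowest in Lo 8: the median log2 CPM of 722 genes of chromosome 1 stood 0.30 below that of the autosomes, compared with -0.23 in Hi 7 and -0.14 in Hi 5. Across the 20 tumors Cop1 followed the level of its chromosome, with a slope of 1.72 (SE 0.32, adjusted p = 0.00135 in edgeR's test), but it did not pass without Lo 8 (1.18, SE 0.40, adjusted p = 0.0736). Trp53bp1 followed chromosome 2 in the same way (1.59, SE 0.49, adjusted p = 0.0351, and 1.42, SE 0.57, adjusted p = 0.135 without Lo 8), and the level of that chromosome in Lo 8, 0.20, was second only to 0.23 in Lo 2. Phlda3 lies on chromosome 1, as Cop1 does, and nonetheless had 1 of its 3 highest values in Lo 8. Lo 8 also had the highest GC slope, 0.119, ahead of Hi 1 with 0.070. The part of these chromosomes and of the GC slope in the levels of Lo 8 was not tested.

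**Figure D2:**
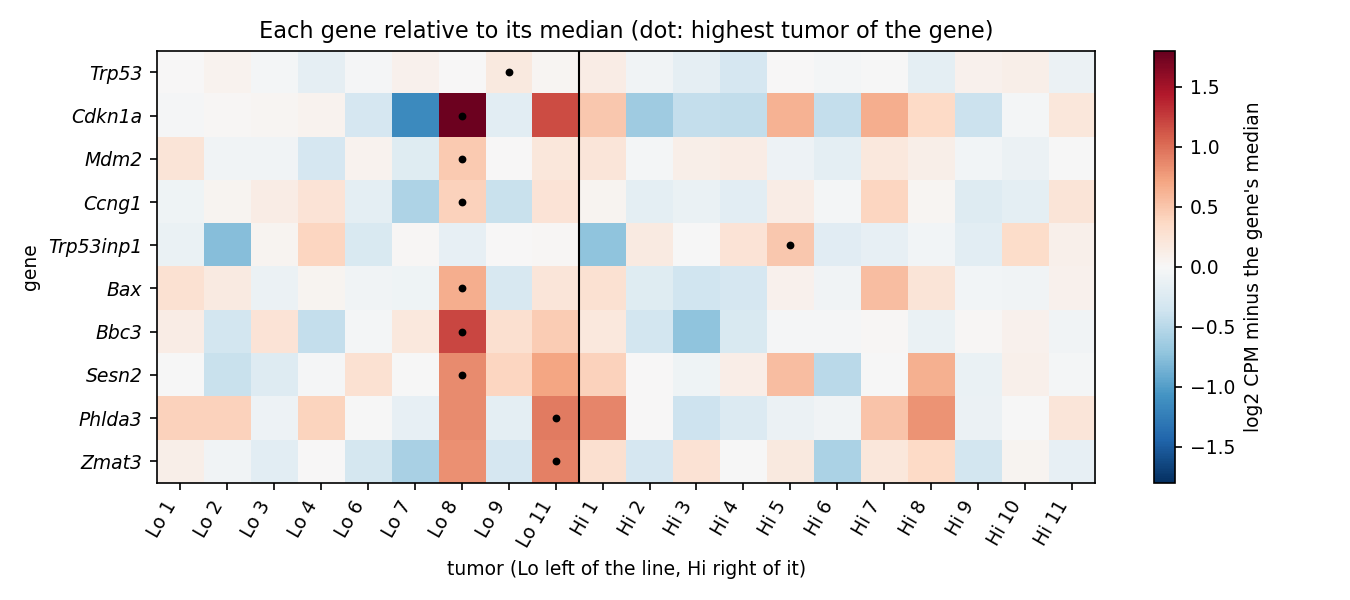
Log2 CPM of each gene (rows) in each tumor (columns) minus the median of that gene, with red for higher and blue for lower values and a dot at the highest tumor of each gene. Lo 8 holds 6 of the 10 dots, Lo 11 holds 2, and Trp53 is near white throughout.

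**Figure D3:**
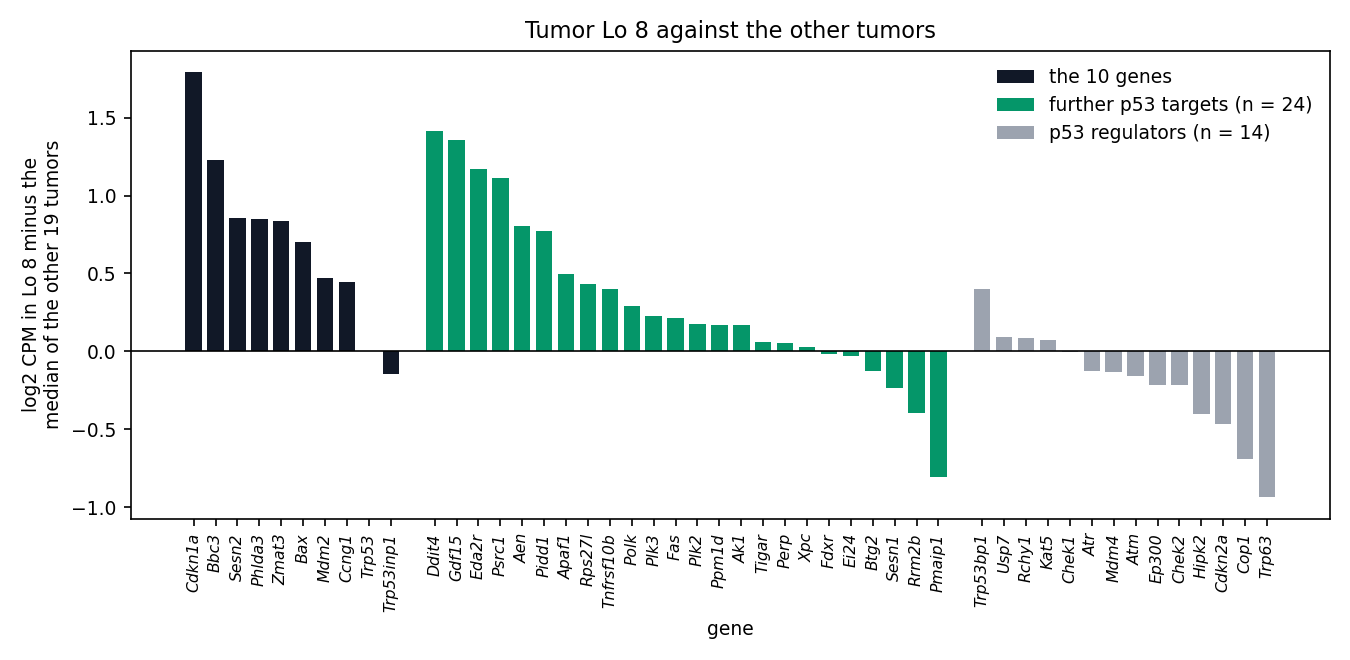
Log2 CPM in Lo 8 minus the median of the other 19 tumors (vertical axis) for the 10 genes, 24 further p53 targets and 14 p53 regulators, sorted within each group. Cdkn1a is highest, Trp53 sits at 0, and most regulators lie below 0, with Cop1 at -0.69.

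Whether the genes moved together was asked over all tumors. Of 45 pairs, 34 had a positive Pearson r of log2 CPM, and the median r was 0.48 over 20 tumors. The median r of each gene with 13831 other expressed genes ran from -0.02 for Mdm2 to 0.05 for Ccng1. Trp53 and Trp53inp1 stood apart from the other 8. Among these 8, a subset chosen after its values were seen, all 28 pairs were positive, with r from 0.24 to 0.86 and a median of 0.61. Without Lo 8, 27 of the 28 were positive and the median was 0.44. With the length and GC slopes removed from all 20 tumors, all 28 were positive with a median of 0.55. With both removed, 25 were positive and the median was 0.51. Within Hi, which does not hold Lo 8, the median was 0.52.

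The closest pair was Cdkn1a and Zmat3, with r = 0.86 (permutation p = 1e-05, the smallest that 100000 permutations give) and rho = 0.73 (permutation p = 0.00037). It was 0.95 within Lo and 0.64 within Hi, 0.72 when the 2 tumors most distant from the median were left out, and 0.81 without Lo 8. Cdkn1a and Ccng1 had r = 0.82 (permutation p = 2e-05) and rho = 0.84 (permutation p = 1e-05), with 0.84 within Lo, 0.80 within Hi, 0.80 without the 2 farthest tumors and 0.80 without Lo 8. After removal of the slopes this r was 0.94, the highest of the 45. The 2 transcripts differ in base composition: Ccng1 had a GC content of 40.8%, above that of 7.86% of the genes used, and Cdkn1a 54.4%, above that of 74.2%. Cdkn1a and Ccng1 thus moved together in both groups and with or without Lo 8.

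Bax and Phlda3 had r = 0.84 (permutation p = 1e-05) and rho = 0.86 (permutation p = 1e-05), with 0.85 within Lo, 0.81 within Hi and 0.86 without the 2 farthest tumors. This pair fell to 0.58 with the slopes removed. Both transcripts are rich in GC, at 63.5% and 62.6%, above 99.2% and 98.7% of the genes used. Cdkn1a and Mdm2 had r = 0.64 (permutation p = 0.00274) and rho = 0.39 (permutation p = 0.092), with 0.75 within Lo and 0.35 within Hi. It was 0.35 without the 2 farthest tumors, of which Lo 8 is 1, 0.45 without Lo 8 alone and 0.55 with the slopes removed.

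The direction of Trp53 RNA relative to its targets changed with the scaling. Its r with the other 9 genes ran from -0.38 for Trp53inp1 to 0.48 for Bbc3, with a median of 0.07. For Cdkn1a it was 0.10 (permutation p = 0.669; rho = 0.11, permutation p = 0.649), with -0.18 within Lo, 0.32 within Hi and 0.04 without the 2 farthest tumors. After removal of the slopes, 1 of the 9 values was above 0 and the median was -0.35, whereas on the log2(RPKM + 1) scale without TMM factors all 9 were above 0, from 0.06 to 0.57. For Bbc3, r was 0.48 (permutation p = 0.0361) and rho = 0.65 (permutation p = 0.00219), with 0.27 within Lo, 0.68 within Hi and 0.47 without the 2 farthest, and it was 0.11 with the slopes removed. Trp53inp1 was also apart, with a median r of -0.12 to the other 9 genes and 1 of 9 above 0.

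**Figure D4:**
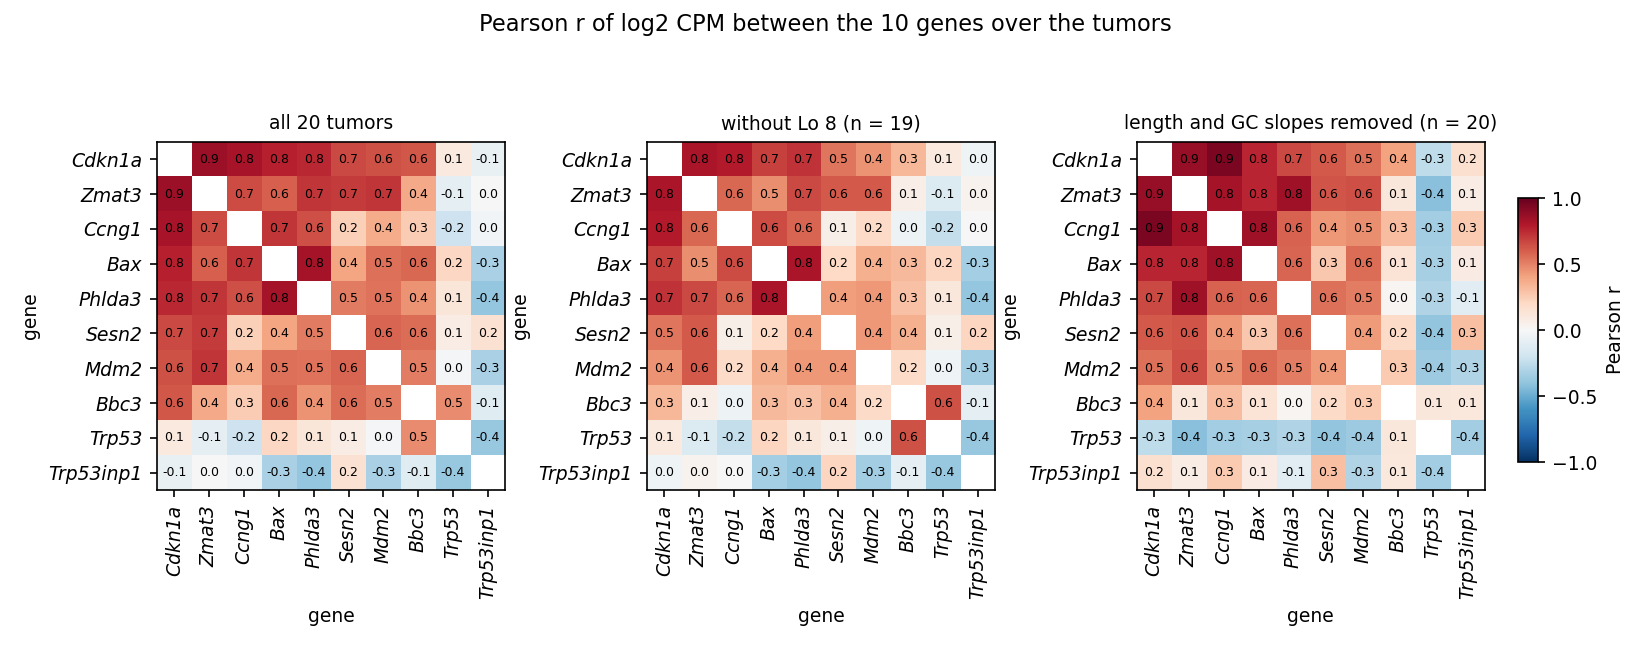
Pearson r of log2 CPM for each pair of the 10 genes over all 20 tumors (left), without Lo 8 (middle) and with the length and GC slopes of the tumors removed (right), on a scale from blue (-1) to red (1). Cdkn1a, Zmat3, Ccng1, Bax and Phlda3 stay red among themselves in all 3 panels, whereas Bbc3 fades and Trp53 turns blue on the right.

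**Figure D5:**
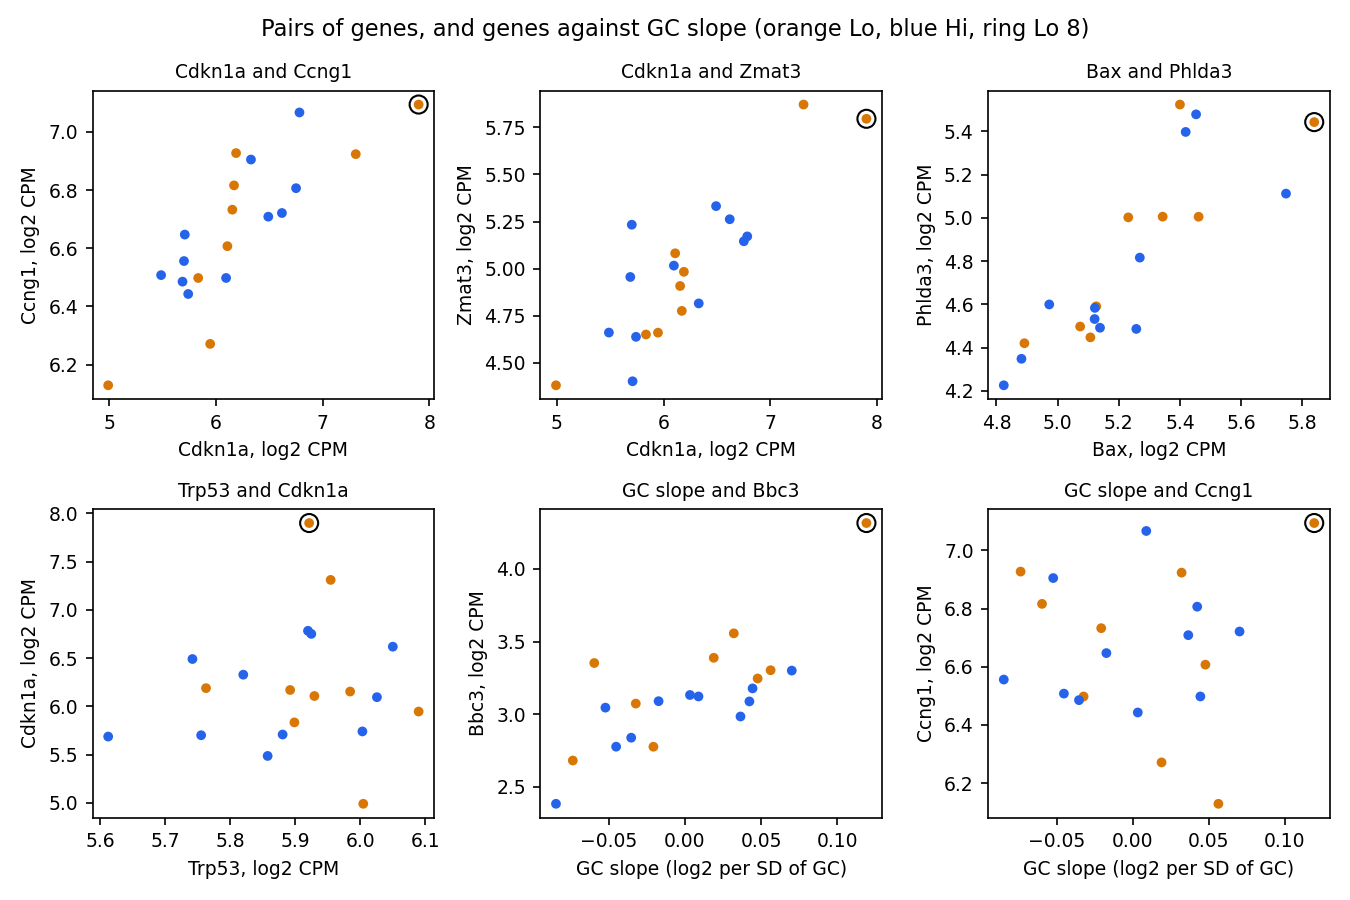
Log2 CPM of 4 pairs of genes, and of Bbc3 and Ccng1 against the GC slope, with 1 point per tumor (orange Lo, blue Hi, Lo 8 ringed). Cdkn1a rises with Ccng1 (r = 0.82) and Zmat3 (r = 0.86) whereas r with Trp53 is 0.10, and Bbc3 rises with the GC slope (r = 0.76) whereas r of Ccng1 with it is 0.05.

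The same question was put to all genes at once by fitting every gene on the log2 CPM of each of the 10 in turn, again by edgeR's quasi-likelihood test, with p adjusted over all genes by the Benjamini-Hochberg method. On Cdkn1a, 133 of 18882 genes passed (0.704%), 108 of them upward (0.572%). Among these were 4 of the other 9: Zmat3 (slope of 0.52, SE 0.07, adjusted p = 0.00142), Phlda3 (0.49, SE 0.09, adjusted p = 0.0169), Bax (0.32, SE 0.06, adjusted p = 0.0158) and Ccng1 (0.32, SE 0.05, adjusted p = 0.00709). A slope of 1 would be a proportional change. Sesn2 (0.36, SE 0.09, adjusted p = 0.0556), Bbc3 (0.37, SE 0.09, adjusted p = 0.0636) and Mdm2 (0.18, SE 0.05, adjusted p = 0.0902) did not pass, and neither did Trp53 (0.02, SE 0.04). Without Lo 8 only 2 genes passed (0.0106%), and Zmat3 was 1 of them (0.54, SE 0.09, adjusted p = 0.0374). With the length and GC slopes in the fit 9 passed (0.0477%), among them Ccng1 (0.37, SE 0.04, adjusted p = 8.46e-05) and Zmat3 (0.58, SE 0.08, adjusted p = 0.00228).

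Of the 24 further targets, 5 passed upward in the fit on Cdkn1a, 0 passed downward and 20 had a positive slope. Their median slope was 0.12, against -0.01 over all genes. The 4 with the largest slopes were Eda2r (0.67, SE 0.09), Ddit4 (0.62, SE 0.13), Psrc1 (0.52, SE 0.08) and Aen (0.30, SE 0.07). The fifth, named after its values were seen, was Tnfrsf10b, the TRAIL receptor (0.23, SE 0.05). Without Lo 8 none of the 24 passed (smallest adjusted p = 0.0526). Of the 24, 19 then had a positive slope, with a median of 0.16 against 0.001 over all genes. At an unadjusted p below 0.05 there were 10 of the 24, as many as with Lo 8. Of all 18882 genes, 2658 were below it without Lo 8 and 2607 with Lo 8. With the length and GC slopes in the fit only Eda2r passed (0.85, SE 0.10). None of the 14 regulators passed.

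The fits on Mdm2 and Trp53 called few genes. On Mdm2, 6 genes passed (0.0318%), 4 upward, with 0 of the other 9 and 1 of the 24 further targets, Tnfrsf10b (slope of 0.999, SE 0.15, adjusted p = 0.0131). On Trp53, 2 genes passed (0.0106%), both downward, and these were neither among the other 9 nor in the list of 24. At an unadjusted p below 0.05 there were 2181 and 1871 genes in these fits. None of the 14 regulators passed in either.

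The fits on the remaining genes were unequal in size. On Bax, 1268 genes passed (6.72%), including 5 of the other 9 (Phlda3, Cdkn1a, Ccng1, Bbc3 and Zmat3). On Phlda3, 1177 passed (6.23%), including Bax, Cdkn1a, Zmat3 and Ccng1. Bbc3 called 341 genes (1.81%) with Cdkn1a among them, Zmat3 called 79 (0.418%) with Cdkn1a and Phlda3, and Ccng1 called 13 (0.0688%) with Cdkn1a. The fits on Sesn2 and Trp53inp1 called 0 genes (0%), with 2036 and 2323 at an unadjusted p below 0.05. Every call among the 10 was positive. When the slopes were in the fit, Bax and Bbc3 called 0 genes (1498 and 1886 at an unadjusted p below 0.05) and Phlda3 74 (0.392%). With the slopes removed, r of Bax was 0.85 rather than 0.72 with Ccng1, 0.76 rather than 0.60 with Zmat3 and 0.76 rather than 0.78 with Cdkn1a. Ccng1 had a slope on Bax of 1.31 in that fit (SE 0.21, adjusted p = 0.0657). Ccng1 then called 5 (0.0265%), with Cdkn1a and Zmat3 among them, and Zmat3 called 45 (0.238%), with Cdkn1a, Ccng1 and Phlda3. Trp53inp1 called 7 (0.0371%), and Trp53, Mdm2 and Sesn2 called 1 each (0.0053%), again none among the 10. Without Lo 8, Bax called 1334 genes (7.06%) with 3 of the other 9, Phlda3 1253 (6.64%) with 3, Zmat3 40 (0.212%) with 1, Ccng1 16 (0.0847%) with 1 and Bbc3 4 (0.0212%) with 0. Trp53inp1 then called 12 (0.0636%) and Trp53 2 (0.0106%), none of them among the 10, and Mdm2 and Sesn2 called 0 (0%), with 1029 and 1517 at an unadjusted p below 0.05. Over all 10 fits, 17 of 90 relations passed, against 9 without Lo 8 and 8 with the slopes. The 90 count each pair of genes in both directions. Over all genes, single fits called 0% to 6.72%, 0% to 7.06% without Lo 8 and 0% to 0.392% with the slopes.

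The GC slope itself was followed by 4 of the 10 genes, all upward, in a fit that called 1193 of 18883 genes (6.32%), 609 of them upward (3.23%): Bbc3 (0.31 for 1 SD of the slope over tumors, SE 0.06, adjusted p = 0.00547), Cdkn1a (0.39, SE 0.11, adjusted p = 0.0342), Sesn2 (0.23, SE 0.06, adjusted p = 0.031) and Bax (0.17, SE 0.05, adjusted p = 0.0381). Without Lo 8, r with the GC slope was 0.27 for Cdkn1a, 0.47 for Bax, 0.51 for Sesn2 and 0.67 for Bbc3. Bbc3, whose GC content of 65.2% was above that of 99.5% of the genes used, had r = 0.76 (permutation p = 6e-05) and rho = 0.66 (permutation p = 0.00173). This r was 0.80 within each group and 0.57 without the 2 farthest tumors. Ccng1 had r = 0.05 (permutation p = 0.845) and rho = -0.03 (permutation p = 0.897). The within-group values were -0.03 for Lo and 0.18 for Hi, with -0.26 without the 2 farthest. The length slope was followed by 0 of the 10 genes in a fit that called 2178 genes (11.5%).

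By the measure of likeness fixed for the genes, Pearson r over 20 tumors among 13831 other genes, the 3 genes closest to Cdkn1a were Lrrc28 (0.89), Ddit4l (0.86) and Eda2r (0.86), and Zmat3 came next at place 4. Cdkn1a was itself at place 3 for Ccng1, after Pros1 (0.82) and Psmd2 (0.82), and at place 3 for Zmat3, after Fam212b (0.89) and Gfod2 (0.88). Tnfrsf10b was closest to Mdm2 (0.88), ahead of Slc25a25 (0.87) and Ptpre (0.81). Trp53 was nearest to Snrpa, Tsen54 and Rps6kl1 (0.78, 0.77 and 0.77), and its closest gene among the 9 targets, Bbc3, stood at place 666. The 3 nearest to Trp53inp1, Pde4b, Dcaf12 and Ufl1 (0.80, 0.80 and 0.79), all lie on chromosome 4 with it. Bax was nearest to Gm26841, Fam221b and Gm12481 (0.92 each), Bbc3 to Pias4, Sympk and Ehmt2 (0.94, 0.89 and 0.89), Phlda3 to Dad1, Eif6 and Ube2v1 (0.91, 0.90 and 0.90) and Sesn2 to Hs6st1, Zbtb7a and Fam212b (0.82, 0.81 and 0.80).

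Gains and losses of whole chromosomes are common in tumors, so each gene was set against the dosage of its chromosome. Dosage was the median centred log2 CPM of the other genes of the chromosome minus that of all autosomes. Of the 10, 3 followed their chromosome, against 2152 of 18228 autosomal genes (11.8%). Trp53inp1 had a slope of 1.35 (SE 0.39, adjusted p = 0.0275) on chromosome 4, whose dosage had an SD of 0.14 and ran from -0.21 in Lo 2 to 0.37 in Hi 5. Those were also the lowest and the highest tumor for Trp53inp1. Its r was 0.63 (permutation p = 0.00361) and rho = 0.45 (permutation p = 0.0508), with 0.59 within Lo, 0.64 within Hi and 0.38 without the 2 farthest tumors. Sesn2, on the same chromosome, did not follow it (slope of 0.13, SE 0.59). With the length and GC slopes in the fit Trp53inp1 had a slope of 1.19 (SE 0.39, adjusted p = 0.0646).

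The other 2 genes that passed, Bbc3 (slope of 10.83, SE 1.8, adjusted p = 0.000599) and Bax (5.21, SE 1.61, adjusted p = 0.0373), lie on chromosome 7, whose dosage hardly varied (SD of 0.03). With the slopes in the fit, which then called 8.51% of genes, neither passed (adjusted p = 0.167 for Bbc3 and 0.843 for Bax), and Bax did not pass without Lo 8 either (3.86, SE 1.76, adjusted p = 0.195, against 7.44% of genes called). Trp53, on chromosome 11, had a slope of 3.35 (SE 1.13, adjusted p = 0.0557). Phlda3, on chromosome 1, had a slope of -1.30 (SE 0.86).

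The make-up of the tumor pieces was measured with marker lists for epithelium, leukocytes, fibroblasts, endothelium and adipocytes, with lists of proliferation and immediate early genes, and with the share of counts on the ribosomal RNA locus. None of the 80 relations of the 10 genes to these 8 measures passed, with a smallest adjusted p of 0.392 and 5 at an unadjusted p below 0.05. Over all genes these fits called 4.68% for epithelium, 1.69% for leukocytes, 1.89% for fibroblasts, 1.1% for endothelium, 0.09% for adipocytes, 1.22% for proliferation, 0.101% for immediate early genes and 0.132% for the ribosomal RNA locus. Lo 8 was low in epithelial score (-0.86, in units of the mean z-score) and Lo 11 high (0.86), and both were high in Cdkn1a. The epithelial genes were split in Lo 8. Krt18 (0.33), Krt8 (0.16) and Cldn3 (0.13, log2 CPM) lay above the median of the other tumors. Krt19 (-1.18), Cldn4 (-0.67), Esrp1 (-0.36), Cdh1 (-0.35), Epcam (-0.28) and Krt7 (-0.17) lay below it. In such pieces, fewer cells of a type and less RNA per cell cannot be told apart.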

How the data were processed

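RNA of 20 tumors, 1 per mouse, was sequenced as polyA-selected mRNA. According to the submitters' processing notes, reads were aligned to mm10 with TopHat2 2.0.12 and counted per gene with featureCounts 1.4.4. The annotation release and the use of strand are not given in the sources used here. The authors deposited raw counts per gene, not normalised, in 1 table with 20 tumor columns, each matched to a sample by its Lo or Hi name.

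Genes with low counts were filtered with edgeR 4.0.16 (R 4.3.3), and counts were scaled with TMM factors. Log2 CPM used a prior count of 2. The main test was edgeR's quasi-likelihood test, two-sided, with Benjamini-Hochberg adjustment over all genes tested and a threshold of 0.05. It compared Lo with Hi, and related every gene to the log2 CPM of each of the 10 genes, to the dosage of its own chromosome (from genes whose CPM averaged 5 or more), to marker scores and to the length and GC slopes. Pearson and Spearman correlations were given for 45 pairs and 110 further relations, with 100000 permutations, two-sided, so that 1e-05 is the smallest p they can give. The length and GC slopes were fitted together in each tumor on the listed length and on the GC content of the longest GENCODE transcript, which 99.2% of 13832 expressed genes had. The tumors came from separate mice and no library was repeated, so the spread between them holds biological and technical differences together. The fits of Lo against Hi and on single genes were tested on simulated data. DESeq2 1.42.0, other filters and scalings, a replicate block and fits with tumors left out were alternatives.

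The 10 genes and all lists were chosen with earlier results of these data known. Genes outside the 10 were named by a rule: up to 4 per list and direction with the largest slope among those past the threshold, and the 3 with the highest r to each of the 10. Exceptions are stated where they occur. Sesn2 overlaps an annotated gene of very low count.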

Additional observations from a re-analysis of the deposited data

Results flagged for a closer look

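Values of the 10 genes, the dosage of the chromosomes that hold them and the length and GC slopes were screened for a tumor standing apart within the 9 Lo tumors, by Dixon's gap test. It marked 4 of 19 measures, where chance marks about 1 in 20. Bbc3 reached a level of 9.89 in Lo 8, and the next Lo tumor had 5.84. Levels of genes were screened on the linear scale. On the log2 CPM scale, which was not screened, Bbc3 had 4.31 in Lo 8, 3.56 in Lo 11 and 2.68 in its lowest Lo tumor. The level of Bbc3 is among the values that singled out Lo 8, so its mark is no further test of that tumor. The dosage of chromosome 1, which holds Phlda3, was -0.299 in Lo 8, with -0.00137 next to it. The dosage of chromosome 3, which holds Zmat3, was 0.158 in Lo 11, the tumor with the highest level of Zmat3, and 0.0224 in the next. Lo 8, second in Zmat3 with 4.85 against 5.11 in Lo 11, had the lowest dosage of chromosome 3 of the 20 tumors, -0.0488. Zmat3 was not among the genes that followed their own chromosome. The length slope was 0.0424 in Lo 9, followed by 0.00695. The Hi group, with 11 tumors, was not tested in this way.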

How the results depend on the processing

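The comparison of Lo with Hi called 0 genes, and 1 with no filter on low counts and 1 with DESeq2. Equal numbers in Lo and Hi marked no pairing: the deviations of same-numbered tumors had r from -0.418 to 0.208, and 1 of 9 correlated best with its own number. With the replicate number as a block 0 genes were called, with 872 at an unadjusted p below 0.05. Of 90 relations among the 10 genes, 17 passed, 4 without the 2 tumors farthest from the median, 9 without Lo 8 and 8 with the length and GC slopes as covariates. In the same order, single fits called at most 1268, 488, 1334 and 74 of 18882 genes. The last 2 alternatives were chosen after seeing the data. With epithelial and leukocyte scores as covariates, the fit on Cdkn1a called 309 genes in place of 133, Bbc3 755 in place of 341, Trp53inp1 35 in place of 0, Mdm2 10 in place of 6 and Trp53 1 in place of 2. No filter on low counts gave 52 for Trp53, 16 for Mdm2, 26 for Ccng1 in place of 13, 38 for Trp53inp1 and 11 for Sesn2 in place of 0. Lo or Hi as a term gave 0 for Trp53, 2 for Mdm2 and 7 in place of 25 for the ribosomal RNA share. Without the 2 farthest tumors the fits on Trp53, Cdkn1a, Mdm2 and Bbc3 called 0 genes, Zmat3 3 in place of 79, Bax 481 in place of 1268, Phlda3 488 in place of 1177 and Ccng1 34, while dosage called 432 in place of 2152 and the marker lists between 5 and 267 where they differed by over 1.5 times. Of the 10 genes, 3 followed their own chromosome, 1 without the 2 farthest tumors, 2 without Lo 8 and 0 with the slopes. Slopes on the own chromosome reversed for Bax with the slopes as covariates (-0.955), for Sesn2 without the 2 farthest tumors (-1.29) and for Phlda3 without the 2 farthest tumors (1.03) and with the slopes (0.328). None of these 4 passed the threshold. The median SD of the 10 genes was 0.339 (log2 CPM), 0.288 on the log2(RPKM + 1) scale and 0.302 without Lo 8. Of the alternative values of r for the 45 pairs, 341 moved by less than 1 standard error of r and 64 moved further. With the slopes and Lo 8 both removed, r of Bax and Bbc3 was -0.19 rather than 0.57. On the log2(RPKM + 1) scale without TMM scaling, r of Trp53 and Mdm2 was 0.49 rather than -0.01. The causes were not tested. With 20 tumors, a difference between Lo and Hi of the size measured for Cdkn1a (0.33, SE 0.28) could not be told from the spread between tumors.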

Other observations

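Genes of the other 2 lists also followed single genes of the 10. Among the regulators Trp63, a p53 relative of basal epithelium, fell with Bax (slope of -1.30, SE 0.36, adjusted p = 0.0345 in edgeR's test) and with Phlda3 (-0.80, SE 0.23, adjusted p = 0.0415), and passed in neither without Lo 8 (adjusted p = 0.0738 and 0.0732). Cop1 and Atm fell with the GC slope. Of the 24 further targets, Rps27l, a ribosomal protein-like p53 target, rose with Ccng1, Bax and Phlda3, and Psrc1, a regulator of microtubules, rose with Bax, Bbc3, Phlda3, Zmat3 and Cdkn1a. Eda2r rose with Ccng1, Bax, Zmat3 and Cdkn1a. Without Lo 8, Psrc1 passed only with Bax and Phlda3, and Eda2r only with Zmat3. Rps27l still passed with Ccng1, Bax and Phlda3. With the length and GC slopes as covariates Eda2r still passed in the fits on Cdkn1a, Ccng1 and Zmat3, whereas Psrc1 and Rps27l passed in none. These genes were named after their values were seen.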
